A study of Homo sapiens with 5 samples.

Results

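The genes described here are integrins and focal adhesion components: 20 integrin subunits and 21 proteins that join integrins to the actin cytoskeleton or signal beside them. Of these 41 listed genes, 36 had a feature annotated with exactly 1 gene symbol, out of 14232 genes measured in that way, and each gene took its brightest feature by mean over the 5 arrays. The other 5, ITGA1, ITGA4, TLN1, TLN2 and LIMS1, were represented by features that also carry the symbol of another gene, and no value is given for them. Human lung cancer cell lines were profiled on exon arrays, 1 array per sample. A549, an established lung adenocarcinoma line that has lost the function of the kinase LKB1 by mutation, was measured with NEDD9 knockdown by each of 2 different short hairpins and as a control. CRL-5907, described by the submitters as having wild-type LKB1 and little NEDD9, was measured with NEDD9 overexpression and as a control. No replicate exists for either control or for overexpression, the labels name no control construct, and nothing in them says that the arrays came from separate cultures. Differences between single arrays therefore received no test, the spread between the hairpins mixes technical error with the difference between constructs, and the number of arrays limits the precision.

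Integrins are heterodimers of an alpha and a beta subunit that bind matrix proteins outside the cell and connect them to actin inside it. Talins and kindlins bind the beta tail and switch the receptor on; vinculin, alpha-actinins and tensins couple it to actin, and the ILK, PINCH and parvin complex forms a further link. Paxillin, zyxin and related LIM-domain proteins gather at the resulting plaque, where SRC and focal adhesion kinases phosphorylate scaffolds of the Cas family, to which NEDD9 belongs.

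NEDD9 followed the labels on every array. Its log2 level was 8.35 with hairpin 1 and 8.52 with hairpin 2, against 8.94 on the A549 control, and 9.49 with overexpression, against 4.66 on the CRL-5907 control. Partial knockdown in one line is thus set beside a 28.5-fold increase in the other. All 6 epithelial markers (EPCAM, CDH1, KRT7, KRT8, KRT18 and KRT19) lay above the median of measured genes on each array. All 4 endothelial markers lay below it on each array, the leukocyte marker PTPRC had the same low value of 1.72 throughout, and at most 1 of 5 fibroblast markers and 1 of 5 measured leukocyte markers lay above it. Array medians over measured genes ran from 5.70 to 5.86, and arrays of the same line correlated with r = 0.989 to 0.991, against 0.948 to 0.953 between lines (all 22011 features).

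Of the 36 members, 25 lay above the array median on all 5 arrays, among them all 18 non-integrin members. Another 9, all integrin subunits (ITGA7, ITGA8, ITGA9, ITGA10, ITGA11, ITGB2, ITGB3, ITGB6 and ITGB7), lay below it on every array, a level at which signal over background was not shown. ITGA2 was above the median on the 3 A549 arrays only, and ITGB8 on the overexpression array only. ITGB7, a beta subunit of leukocyte integrins, had the identical value of 4.74 on all 5 arrays. ITGB3, ITGA9 and ITGA10 had identical values on 4 arrays each, which RMA can produce when probes carry little signal. Equal values on some arrays also occurred at higher levels, as for CAV1, LPP and ITGB4. Differences of exactly 0 therefore say nothing about change. Levels are compared below only between arrays for the same gene, since probe sets of different genes have no common scale.

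**Figure D1:**
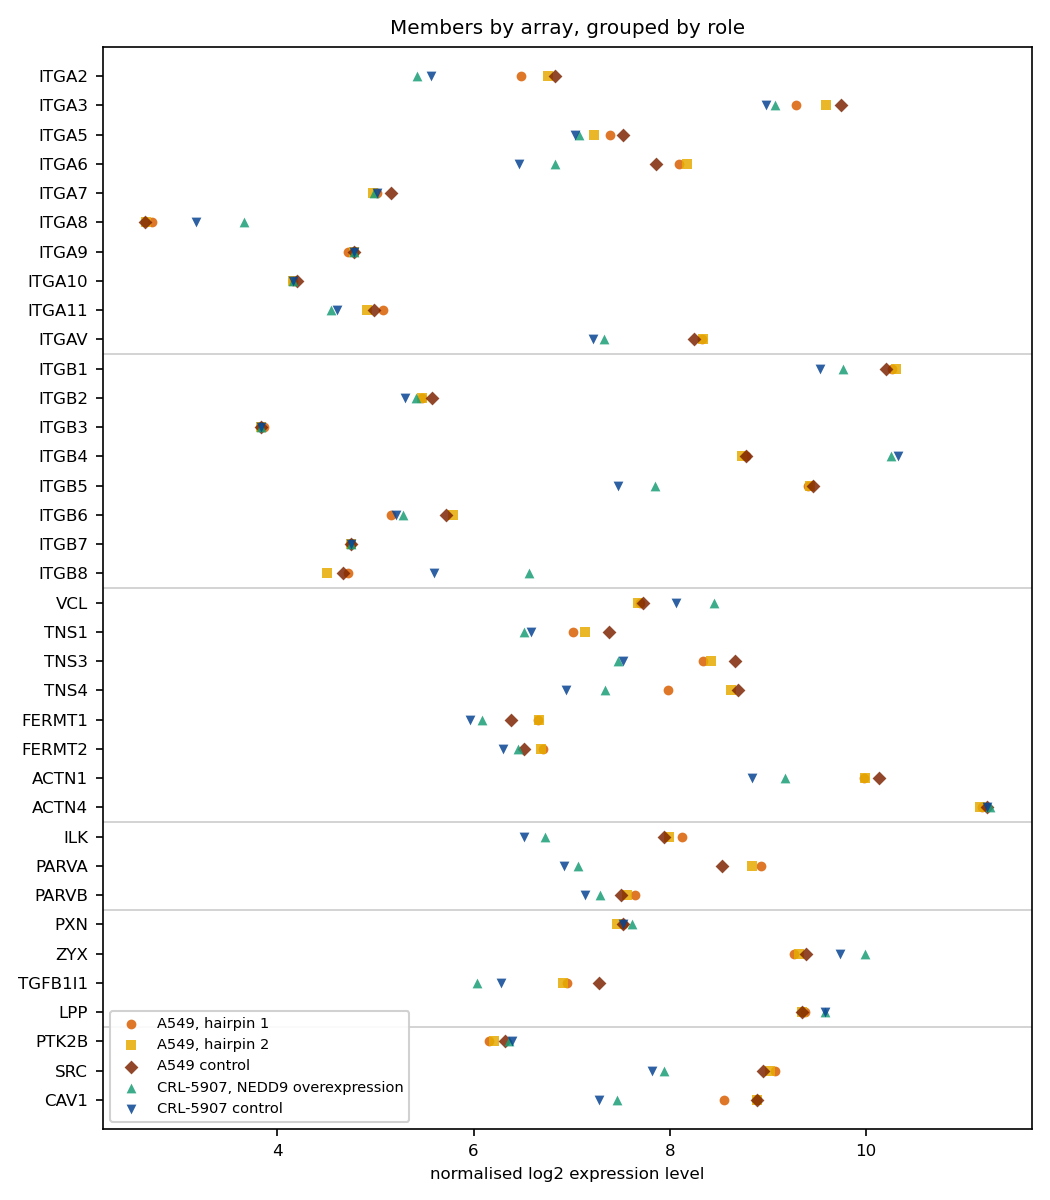
Normalised log2 expression level (horizontal axis) of the 36 measured members (vertical axis, grouped by role) on each of the 5 arrays, 1 symbol per array. The symbols of the 3 A549 arrays sit to the right of those of CRL-5907 for ITGB5, PARVA, ILK and CAV1 and to the left for ITGB4 and ITGB8.

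More of these genes passed 2-fold between the cell lines than passed 1.5-fold with any manipulation of NEDD9. On the control arrays, 12 of 36 members were at least 2-fold higher in A549 than in CRL-5907, where 6.44% of all measured genes were, and 1 member was at least 2-fold lower, where 3.53% of all genes were. The median difference over the members was 0.40 on the log2 scale, against 0.01 over all genes. With all arrays of a line pooled (3 of A549 against 2 of CRL-5907), limma with Benjamini-Hochberg adjustment over all genes at 0.05 called 17 members higher and 6 lower in A549, beside 17.7% and 10% of all genes. Every A549 array lay above both CRL-5907 arrays for 21 members (58.3%) and below both for 8 (22.2%), beside 30.1% and 20.5% of all genes. These shares of all genes are not matched for level: 9 of 36 members but 6241 of 14232 genes were above no array median. Restricted to genes whose mean over the arrays lay above the median gene's, limma called 18 members and 2282 genes higher. It called 4 members and 1187 genes lower there. In the same restricted set 12 members and 659 genes were at least 2-fold higher on the A549 control, and 1 member and 281 genes lower. These gene counts are out of the restricted set and not out of all 14232 genes. The shares of all genes therefore understate the background at the members' level. The limma fit counts the NEDD9-manipulated arrays as arrays of their line, so that the effects of knockdown and overexpression enter the error. Of the called members, 8 higher ones (ITGA6, ITGAV, ITGB5, ILK, PARVA, SRC, ACTN1 and CAV1) and 1 lower one (ITGB4) were called whichever single array was left out. After a further quantile normalization the controls differed by 2-fold in 9 higher and 2 lower members, and over all genes the share of higher genes among those called by limma was 63.8% as deposited and 49.2% after that step.

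Among the beta subunits, ITGB5 and ITGB4 lay furthest apart between the lines, in opposite directions. ITGB5, a partner of ITGAV in vitronectin receptors, was at 9.41 with hairpin 1, 9.43 with hairpin 2 and 9.46 on the control in A549, against 7.85 with overexpression and 7.47 on the control in CRL-5907. Its control arrays differed 3.97-fold, and over all arrays it was higher in A549 by 1.77 ± 0.13 (log2, SE; limma adjusted p = 0.00280). ITGAV, the vitronectin receptor alpha subunit, was at 8.32 with hairpin 1, 8.33 with hairpin 2 and 8.24 on the control in A549, against 7.33 with overexpression and 7.22 on the control in CRL-5907, and was higher in A549 by 1.03 ± 0.060 (log2, SE; limma adjusted p = 0.00201). For both genes every A549 array lay above both CRL-5907 arrays by more than the range within either line. ITGB4, which pairs with ITGA6 in the laminin receptor of hemidesmosomes, was at 8.78 with hairpin 1, 8.74 with hairpin 2 and 8.78 on the control in A549, against 10.25 with overexpression and 10.32 on the control in CRL-5907. It was lower in A549 by 2.92-fold on the control arrays and differed by -1.52 ± 0.045 (log2, SE; limma adjusted p = 0.000653) over all arrays. ITGA6, the alpha subunit of laminin receptors and the partner of ITGB4, was at 8.09 with hairpin 1, 8.17 with hairpin 2 and 7.86 on the control in A549, against 6.83 with overexpression and 6.46 on the control in CRL-5907. The lines did not overlap in either gene, and ITGA6 was higher in A549 (1.39 ± 0.16 (log2, SE; limma adjusted p = 0.00779)), the opposite direction to its partner.

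ITGB1, the beta subunit that pairs with most alpha subunits, was at 10.27 with hairpin 1, 10.30 with hairpin 2 and 10.20 on the control in A549, against 9.77 with overexpression and 9.53 on the control in CRL-5907. This was a smaller difference in the same direction as ITGAV (0.61 ± 0.088 (log2, SE; limma adjusted p = 0.0133)). ITGA2, a collagen receptor subunit, was at 6.48 with hairpin 1, 6.76 with hairpin 2 and 6.83 on the control in A549, against 5.42 with overexpression and 5.57 on the control in CRL-5907; its A549 arrays were higher by 1.19 ± 0.13 (log2, SE; limma adjusted p = 0.00717). The levels in CRL-5907 lay below the array medians. ITGA3, a laminin receptor subunit, did not overlap between the lines at 9.29 with hairpin 1, 9.59 with hairpin 2 and 9.74 on the control in A549, against 9.07 with overexpression and 8.98 on the control in CRL-5907, but was not called (adjusted p = 0.0784 with limma). The same held for ITGA5, the fibronectin receptor alpha subunit, whose mean was 7.38 ± 0.15 in A549 (SD, n = 3) and 7.05 ± 0.028 in CRL-5907 (SD, n = 2; adjusted p = 0.0878 with limma). ITGA8 was called lower and ITGA11 higher in A549, but both lay below the array medians throughout.

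All 3 measured members of the ILK complex were called higher in A549 by limma. ILK, the integrin-linked pseudokinase at its centre, was at 8.12 with hairpin 1, 7.99 with hairpin 2 and 7.94 on the control in A549, against 6.73 with overexpression and 6.51 on the control in CRL-5907. PARVA, an actin-binding parvin, was at 8.93 with hairpin 1, 8.84 with hairpin 2 and 8.53 on the control in A549, against 7.07 with overexpression and 6.92 on the control in CRL-5907. PARVB, the other parvin among the members, was at 7.65 with hairpin 1, 7.56 with hairpin 2 and 7.50 on the control in A549. In CRL-5907 it was at 7.28 with overexpression and 7.14 on the control. ILK was higher by 1.40 ± 0.10 (log2, SE; limma adjusted p = 0.00276), and PARVA by 1.77 ± 0.14 (log2, SE; limma adjusted p = 0.00359). PARVB had the smallest difference of these 3 (0.36 ± 0.077, log2 and SE, limma adjusted p = 0.0352). LIMS1, a PINCH subunit, had no feature of its own. Its relative LIMS2, outside the members, had means of 5.90 in A549 and 5.89 in CRL-5907 (adjusted p = 0.981 with limma). PARVG, a parvin outside the members and below every array median, differed by -0.008 (adjusted p = 0.884 with limma).

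Linkers of integrins to actin went both ways. ACTN1, the non-muscle alpha-actinin that crosslinks actin at adhesions, was at 9.98 with hairpin 1, 9.99 with hairpin 2 and 10.13 on the control in A549, against 9.17 with overexpression and 8.83 on the control in CRL-5907, and was higher in A549 by 1.03 ± 0.12 (log2, SE; limma adjusted p = 0.00869). Its paralog ACTN4 stayed between 11.16 and 11.26 on all arrays and was not called (adjusted p = 0.367 with limma). Vinculin, encoded by VCL, reinforces the bond between talin and actin and was lower in A549, with levels of 7.69 with hairpin 1, 7.67 with hairpin 2 and 7.73 on the control in A549, against 8.45 with overexpression and 8.06 on the control in CRL-5907. That difference of -0.56 ± 0.13 (log2, SE; limma adjusted p = 0.0461) was smaller than that of ACTN1.

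The 3 tensins among the members, which bind beta tails and actin or, for TNS4, lack the actin-binding part, were all called higher in A549. TNS2, a tensin outside the members, was also called higher, by 0.71 ± 0.096 (log2, SE, limma adjusted p = 0.0111). TNS3 was at 8.34 with hairpin 1, 8.42 with hairpin 2 and 8.66 on the control in A549, against 7.47 with overexpression and 7.52 on the control in CRL-5907, and was higher by 0.98 ± 0.11 (log2, SE; limma adjusted p = 0.00787). TNS4 was at 7.98 with hairpin 1, 8.62 with hairpin 2 and 8.70 on the control in A549, against 7.34 with overexpression and 6.95 on the control in CRL-5907, a 3.37-fold difference between controls and a mean difference of 1.29 ± 0.28 (log2, SE; limma adjusted p = 0.0372). The hairpin 1 array stood apart from the other A549 arrays for TNS4. TNS1 was at 7.01 with hairpin 1, 7.14 with hairpin 2 and 7.38 on the control in A549, against 6.52 with overexpression and 6.58 on the control in CRL-5907, with a mean difference of 0.63 ± 0.13 (log2, SE; limma adjusted p = 0.0310). The kindlins among the members, which bind beta tails beside talin, were higher in A549 by smaller amounts. FERMT1 was higher by 0.54 ± 0.12 (log2, SE, limma adjusted p = 0.0361). FERMT2 was higher by 0.25 ± 0.092 without passing the test (adjusted p = 0.123 with limma). FERMT3, a kindlin outside the members and below every array median, differed by -0.16 ± 0.075 (adjusted p = 0.221 with limma).

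Among the LIM-domain adaptors, TGFB1I1 was higher and ZYX and LPP were lower in A549, while PXN, the paxillin gene, ranged only from 7.46 to 7.61 and was not called (adjusted p = 0.430 with limma). TGFB1I1, a relative of paxillin, was at 6.95 with hairpin 1, 6.91 with hairpin 2 and 7.28 on the control in A549, against 6.03 with overexpression and 6.27 on the control in CRL-5907, a mean difference of 0.89 ± 0.15 (log2, SE; limma adjusted p = 0.0204). ZYX, the zyxin gene, was at 9.26 with hairpin 1, 9.32 with hairpin 2 and 9.38 on the control in A549, against 9.99 with overexpression and 9.73 on the control in CRL-5907, a mean difference of -0.54 ± 0.10 (log2, SE; limma adjusted p = 0.0233). LPP, a relative of zyxin, differed by -0.22 ± 0.037 (log2, SE; limma adjusted p = 0.0188), and its values within CRL-5907 were almost equal (9.58 with overexpression and 9.58 on the control). SRC, the tyrosine kinase, was at 9.07 with hairpin 1, 9.02 with hairpin 2 and 8.95 on the control in A549, against 7.94 with overexpression and 7.82 on the control in CRL-5907. CAV1, the main caveolin, which associates with integrins and SRC-family kinases, was at 8.56 with hairpin 1, 8.89 with hairpin 2 and 8.89 on the control in A549, against 7.47 with overexpression and 7.28 on the control in CRL-5907. SRC was higher in A549 by 1.13 ± 0.066 (log2, SE; limma adjusted p = 0.00201), and CAV1 by 1.41 ± 0.14 (log2, SE; limma adjusted p = 0.00583), with no overlap between the lines. PTK2B, the kinase related to focal adhesion kinase, was not called (-0.15 ± 0.065, adjusted p = 0.190 with limma).

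Of the 23 calls between the lines, 14 were lost when some single array was left out, with 2 residual degrees of freedom in place of 3. Without the hairpin 1 array the limma adjusted p was 0.114 for FERMT1, 0.112 for ITGA8, 0.0624 for ITGB1, 0.114 for ITGB8, 0.0538 for LPP, 0.0962 for PARVB, 0.0680 for TGFB1I1, 0.140 for VCL and 0.0880 for ZYX. Without the hairpin 2 array the limma adjusted p was 0.122 for FERMT1, 0.128 for ITGA8, 0.0683 for ITGB1, 0.133 for ITGB8, 0.0902 for LPP, 0.125 for PARVB, 0.0651 for TGFB1I1, 0.107 for TNS1, 0.130 for TNS4, 0.153 for VCL and 0.0977 for ZYX. Without the A549 control array the limma adjusted p was 0.0523 for ITGA11, 0.108 for ITGA8, 0.105 for ITGB8, 0.0607 for PARVB, 0.0994 for TNS4, 0.114 for VCL and 0.0619 for ZYX. Without the overexpression array the limma adjusted p was 0.118 for FERMT1, 0.0812 for ITGA11, 0.0545 for ITGA2, 0.0634 for PARVB, 0.112 for TGFB1I1, 0.152 for TNS1, 0.0592 for TNS3 and 0.113 for TNS4. Without the CRL-5907 control array the limma adjusted p was 0.172 for FERMT1, 0.0640 for ITGA11, 0.125 for PARVB, 0.0729 for TGFB1I1, 0.130 for TNS1, 0.0556 for TNS3 and 0.185 for TNS4.

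**Figure D2:**
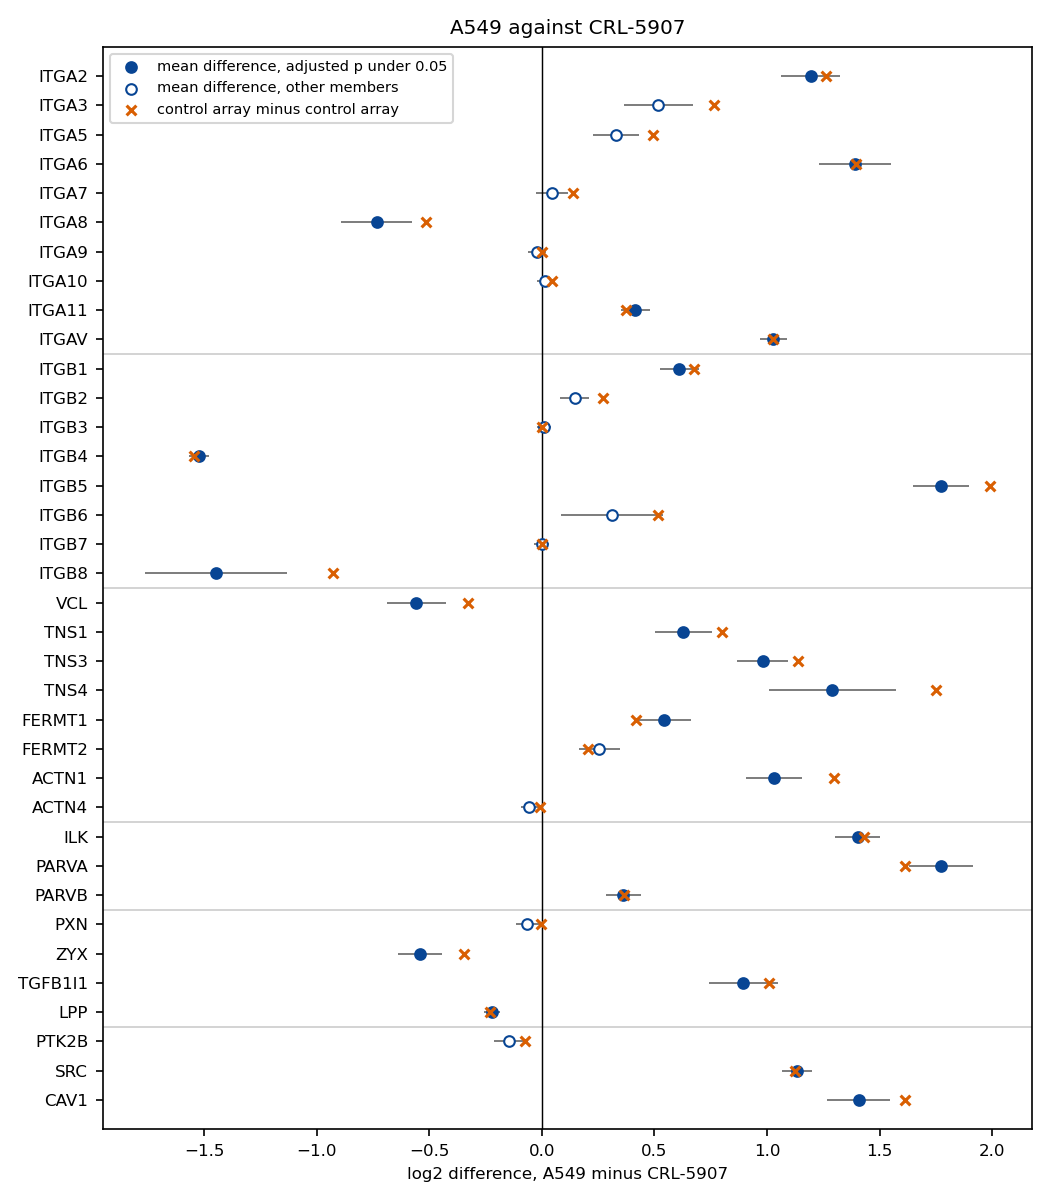
Log2 difference of A549 minus CRL-5907 (horizontal axis) for each measured member (vertical axis, grouped by role). Circles are means over the 3 A549 and 2 CRL-5907 arrays with limma standard errors as bars, filled where the adjusted p was under 0.05, and crosses are the difference of the control arrays alone. ITGB5 and PARVA lie furthest to the right, each at a mean difference of 1.77, and ITGB4 furthest to the left at -1.52.

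With NEDD9 overexpression in CRL-5907, ITGB8 was the single member at least 1.5-fold above the control, and none was 1.5-fold below it. Over all measured genes 2.9% were 1.5-fold higher and 1.35% lower, so that 1 of 36 (2.78%) is close to the background. ITGB8, which pairs with ITGAV in a receptor that activates latent TGF-beta, was at 6.56 with overexpression, against 5.60 on the control. That is 1.95-fold, from a control value just below its array's median of 5.70, and it has no replicate check. A549 had 4.71 and 4.51 with the hairpins and 4.67 on the control, all below the array medians. Over all arrays ITGB8 was lower in A549 (mean difference -1.45 ± 0.31 (log2, SE; limma adjusted p = 0.0369)).

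Smaller differences with overexpression were read against the difference between the 2 hairpin arrays. For each member the 95th percentile of the absolute hairpin difference was taken over genes of the same level, in 20 bins. Beside ITGB8, 6 members exceeded it on the higher side and none on the lower, which makes 7 of 36 (19.4%) higher, where 8.82% of all genes were higher and 3.89% lower. After centring the count was 6, without ZYX. It was 5 after quantile normalization, without ZYX and ACTN1, and 5 once the level-dependent trend was subtracted, without ZYX and ITGA6. Each time the spread was measured anew. Over all genes the shares higher were 8.42%, 7.38% and 7.53%, in that order. The spread was measured in A549 and was only assumed for CRL-5907. The shares of all genes were not matched for level. Among genes whose mean over the arrays lay above the median gene's, 6 members and 945 genes were beyond the spread on the higher side. On the lower side 0 members and 323 genes were. Both gene counts are out of that restricted set. VCL was 8.45 with overexpression, against 8.06 on the control, a difference of 0.40 where the spread was 0.30. ACTN1 was 9.17, against 8.83 on the control, a difference of 0.34 where the spread was 0.26. ZYX, which binds alpha-actinin, barely passed the same spread at 0.26. Integrin subunits followed at similar size. ITGB5 was 7.85, against 7.47 on the control, a difference of 0.38 (spread 0.29). ITGA6 was 6.83, against 6.46, a difference of 0.37 (spread 0.32). TNS4 completed the group at 7.34, against 6.95 on the control, a difference of 0.39 (spread 0.30).

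The other members stayed within that spread. ITGA8 differed by 0.49, inside the wider spread of 0.55 at its low level. ITGB1 was at 0.24, just inside 0.26. On the lower side TGFB1I1 came furthest, at 6.03 with overexpression, against 6.27 on the control, a difference of -0.24. ITGA2 (-0.14), ITGB4 (-0.073) and TNS1 (-0.067) followed. By sign alone, 24 of 36 members (66.7%) were above the control and 8 (22.2%) below, with 4 exactly equal. Over all genes 48.1% were above and 42.3% below. After a further quantile normalization 22 members (61.1%) were above and 14 (38.9%) below, beside 47.8% and 52% of all genes. The members' median difference was 0.10, against 0.00 over all genes, and it was 0.04 after a further quantile normalization.

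Promoter sequences are shown for ITGB8, as the member furthest from its control, and for 3 members that couple integrins to actin or sit at the plaque and differed from the control in different directions with overexpression: ACTN1 and VCL on the higher and TGFB1I1 on the lower side. RefSeq windows (GRCh38.p14) were found for 25 of the 36 measured members, and the 250 bases before the annotated start were searched on both strands for the CArG box bound by serum response factor, a regulator of many actin and adhesion genes, for the TEAD element GGAATG and for the GC box GGGCGG. Capitals mark the matches, none of which overlap in the windows shown. ACTN1 has 4 windows and TGFB1I1 has 3, and the one that holds a CArG box is shown for each.
ITGB8 (chr7:20330650-20330899, plus strand): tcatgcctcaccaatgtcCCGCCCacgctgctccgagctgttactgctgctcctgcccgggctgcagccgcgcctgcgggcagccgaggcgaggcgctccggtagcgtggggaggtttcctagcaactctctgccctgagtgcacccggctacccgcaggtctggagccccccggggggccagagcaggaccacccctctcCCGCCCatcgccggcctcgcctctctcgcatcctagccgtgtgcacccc
ACTN1 (chr14:68977567-68977816, minus strand): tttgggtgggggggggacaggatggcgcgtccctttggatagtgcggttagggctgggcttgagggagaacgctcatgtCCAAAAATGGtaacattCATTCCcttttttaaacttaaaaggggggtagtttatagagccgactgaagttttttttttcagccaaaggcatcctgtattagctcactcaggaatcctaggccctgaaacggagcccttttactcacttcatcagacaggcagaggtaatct
VCL (chr10:73997866-73998115, plus strand): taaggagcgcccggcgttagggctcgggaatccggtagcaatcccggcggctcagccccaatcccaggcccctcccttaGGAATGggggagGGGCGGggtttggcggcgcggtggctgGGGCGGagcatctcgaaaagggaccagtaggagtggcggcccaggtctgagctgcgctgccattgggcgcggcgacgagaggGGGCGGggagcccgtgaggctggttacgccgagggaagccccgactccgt
TGFB1I1 (chr16:31472955-31473204, plus strand): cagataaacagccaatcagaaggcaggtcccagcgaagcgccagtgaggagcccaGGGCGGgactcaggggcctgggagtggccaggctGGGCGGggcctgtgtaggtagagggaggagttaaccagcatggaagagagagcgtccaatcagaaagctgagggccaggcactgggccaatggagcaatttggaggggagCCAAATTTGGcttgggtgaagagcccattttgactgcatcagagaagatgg
The ITGB8 window holds 2 GC boxes and neither of the other motifs. The VCL window holds 3 GC boxes and 1 TEAD element, the ACTN1 window 1 CArG box and 1 TEAD element, and the TGFB1I1 window 1 CArG box and 2 GC boxes. A CArG box occurs in 1.16% of all 35116 windows, a TEAD element in 11.9% and a GC box in 42.6%. Of the 52 windows of members, 4 held a CArG box (7.69%), 10 a TEAD element (19.2%) and 29 a GC box (55.8%), and windows of 1 gene can share sequence. By gene, 4 of the 25 (ACTN1, ITGB6, LPP and TGFB1I1) held a CArG box in at least 1 of their windows, 8 a TEAD element and 20 a GC box. The 4 genes with a CArG box had overexpression differences of 0.34 for ACTN1, 0.073 for ITGB6, 0.0063 for LPP and -0.24 for TGFB1I1, so that they shared no direction. A match is only a run of letters and does not show binding.

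With NEDD9 knockdown in A549, no member differed by 1.5-fold with both hairpins, where 0.794% of all genes were higher and 0.302% lower with both. Both differences subtract the same control array, and the limma error came from the 2 hairpin arrays alone (1 residual degree of freedom), on the assumption that a control array would vary as much. It called 0 of 36 members and 0 of 14232 genes at an adjusted p under 0.05 (lowest adjusted p = 0.276 over all genes, Benjamini-Hochberg). At an unadjusted p under 0.05 it gave 5 members (ITGB2, TGFB1I1, FERMT1, FERMT2 and ACTN1), or 13.9%, beside 15.6% of all genes. The knockdown fit did not call NEDD9 either, so that its lack of calls does not show a lack of change. By sign alone, 16 members (44.4%) were below the control with both hairpins and 10 (27.8%) above, where 27.7% of all genes were below and 39.6% above. The balance over all genes depended on scaling. After centring 24 members (66.7%) were below and 9 (25%) above, beside 46.4% and 33.1% of all genes. After a further quantile normalization 21 (58.3%) were below and 8 (22.2%) above, beside 38.9% and 36.3%. The 5 measured leukocyte markers did not differ from the control in one direction. LYZ, the lysozyme gene, was at 5.55 with hairpin 1 and 5.34 with hairpin 2, against 3.55 on the A549 control, all below the array medians. CD14, the monocyte co-receptor for lipopolysaccharide and the only marker of this list above an array median, was at 6.08 and 5.63 with the hairpins, against 6.47 on the control. CD79A differed by 0.23 and 0.099, CD3E by -0.010 and -0.011, and PTPRC by 0.00 with both. Their summed log2 level was 20.7 and 19.9 with the hairpins, against 18.8 on the control, with LYZ contributing 1.99 and 1.78 and CD14 -0.39 and -0.84. The part of these differences in the members' values was not tested.

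TNS4, TGFB1I1, TNS1, ITGA3 and TNS3 had the lowest mean differences with the hairpins, in that order. TNS4 was 7.98 with hairpin 1 and 8.62 with hairpin 2, against 8.70 on the control. Only hairpin 1 set it 1.5-fold below the control (1.64-fold), and the hairpins disagreed by more than the mean difference of -0.40 ± 0.45 (SD over the 2 hairpins). It was the single member past 1.5-fold with hairpin 1, where 1.27% of all genes were lower and 2.59% higher. No member passed with hairpin 2, where the shares were 0.913% lower and 1.57% higher. TGFB1I1 was 6.95 and 6.91 with the hairpins, against 7.28 on the control, and the hairpins were nearly equal (mean difference -0.35 ± 0.024 (SD over the 2 hairpins); adjusted p = 0.276 with limma). TNS1 had 7.01 and 7.14 with the hairpins, against 7.38, a mean difference of -0.31 ± 0.086 (SD over the 2 hairpins). TNS3 had 8.34 and 8.42, against 8.66, a mean difference of -0.28 ± 0.057 (SD over the 2 hairpins). Both TNS1 and TNS3 lay below the control with each hairpin, but neither was called (adjusted p = 0.390 for TNS1 and 0.338 for TNS3 with limma).

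Several integrin subunits and CAV1 differed with hairpin 1 more than with hairpin 2. ITGA3 was 9.29 with hairpin 1 and 9.59 with hairpin 2, against 9.74 on the control. ITGA2 was 6.48 and 6.76, against 6.83. CAV1 was 8.56 with hairpin 1, while hairpin 2 and the control had the identical value of 8.89, a tie that does not show a lack of change. ITGB6, below the array medians throughout, was 5.15 with hairpin 1 and 5.79 with hairpin 2, against 5.72. CAV1 and ITGB6 were below the control with hairpin 1 alone, while ITGA3 (-0.45 and -0.15) and ITGA2 (-0.35 and -0.069) were below it with both hairpins and further with hairpin 1. The mean difference of ITGA3 was -0.30 ± 0.21 (SD over the 2 hairpins). ITGA5 was the reverse case, with 7.39 for hairpin 1 and 7.23 for hairpin 2, against 7.53 on the control.

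On the higher side were PARVA, ITGA6 and the kindlins FERMT1 and FERMT2. FERMT3, a kindlin outside the members and below every array median, differed by -0.21 with hairpin 1 and -0.083 with hairpin 2. PARVA was 8.93 and 8.84 with the hairpins, against 8.53 on the control, a mean difference of 0.35 ± 0.062 (SD over the 2 hairpins). It was the only member beyond the hairpin spread of its level with both hairpins (1 of 36, or 2.78%), where 3.63% of all genes were higher and 1.19% lower in that sense; limma did not call it (adjusted p = 0.322). With hairpin 2 PARVA passed the spread of 0.295 narrowly, at 0.305, and under each of the 3 other scalings no member was beyond it on the higher side. On the lower side none was beyond it as deposited. TGFB1I1 was after centring, TGFB1I1 and TNS3 once the level-dependent trend was subtracted, and both of these with TNS1 after quantile normalization. Over all genes 1.7%, 1.82% and 2.04% were lower in that sense, in the same order. The 1 of 36 (2.78%) after centring is thus near the background. FERMT1, the epithelial kindlin, had 6.66 and 6.66, against 6.38, a mean difference of 0.28 ± 0.0042 (SD over the 2 hairpins). FERMT2, the widely expressed kindlin, had 6.71 and 6.68, against 6.51, a mean difference of 0.19 ± 0.016 (SD over the 2 hairpins). In both kindlins the hairpin arrays nearly coincided, so that the difference rests on the single control array (adjusted p = 0.276 and 0.284 with limma). ITGA6 had 8.09 and 8.17, against 7.86, a mean difference of 0.27 ± 0.057 (SD over the 2 hairpins).

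Several central adhesion genes had hairpin differences near 0. ITGB1 differed by 0.065 and 0.10, ITGB5 by -0.053 and -0.030, and ITGAV by 0.081 and 0.090; the hairpin 1 differences of ITGB1 and ITGAV changed sign under other scalings. VCL was at -0.039 and -0.058, and ACTN4 at -0.045 and -0.063. ACTN1 was at -0.15 and -0.14, nearly equal with both hairpins and within the spread of its level.

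**Figure D3:**
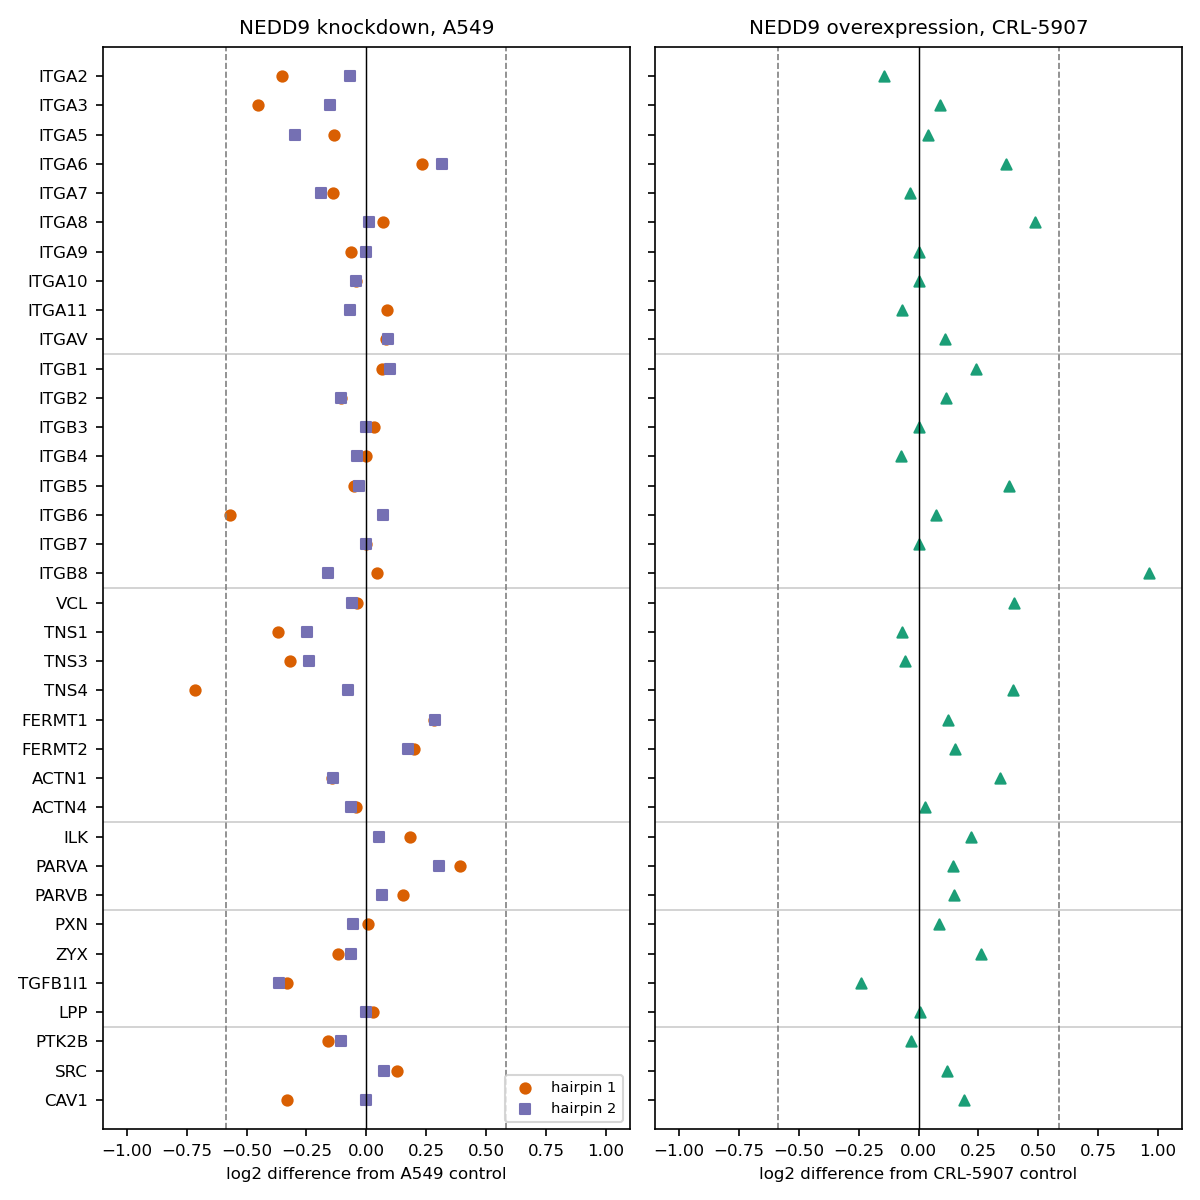
Log2 difference of each measured member (vertical axis, grouped by role) from the control array of its line: hairpins 1 and 2 in A549 on the left, NEDD9 overexpression in CRL-5907 on the right. Dashed lines mark 1.5-fold. TNS4 with hairpin 1 (-0.72) and ITGB8 with overexpression (0.96) are the points past them.

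Knockdown and overexpression use different controls, and their signs can be set side by side. Of 36 members, 9 (25%) were below the control with both hairpins and above it with overexpression, where 10.1% of all genes were, and none was the other way round (1 after quantile normalization, ITGB7), where 13.8% of all genes were. These 9 were ITGA3, ITGA5, ITGB2, ITGB5, VCL, ZYX, TNS4, ACTN1 and ACTN4, and the overexpression sign of ITGA3, ITGA5 and ACTN4 turned under other scalings. Another 10 (27.8%) were above the control with both hairpins and with overexpression, where 24.2% of all genes were, and a hairpin sign of 6 of these (ITGAV, ITGB1, ITGA8, ILK, PARVB and SRC) turned under other scalings, which left PARVA, ITGA6, FERMT1 and FERMT2. None of the 9 passed 1.5-fold on both sides. With overexpression 5 of them exceeded the hairpin spread of their level as deposited, and with both hairpins 0 did. TNS4 passed 1.5-fold with hairpin 1 only, at -0.72, against -0.076 with hairpin 2 and 0.39 with overexpression. ACTN1 was at -0.15 and -0.14 with the hairpins and 0.34 with overexpression. TGFB1I1 lay below the control in all 3 comparisons, at -0.33, -0.37 and -0.24.

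**Figure D4:**
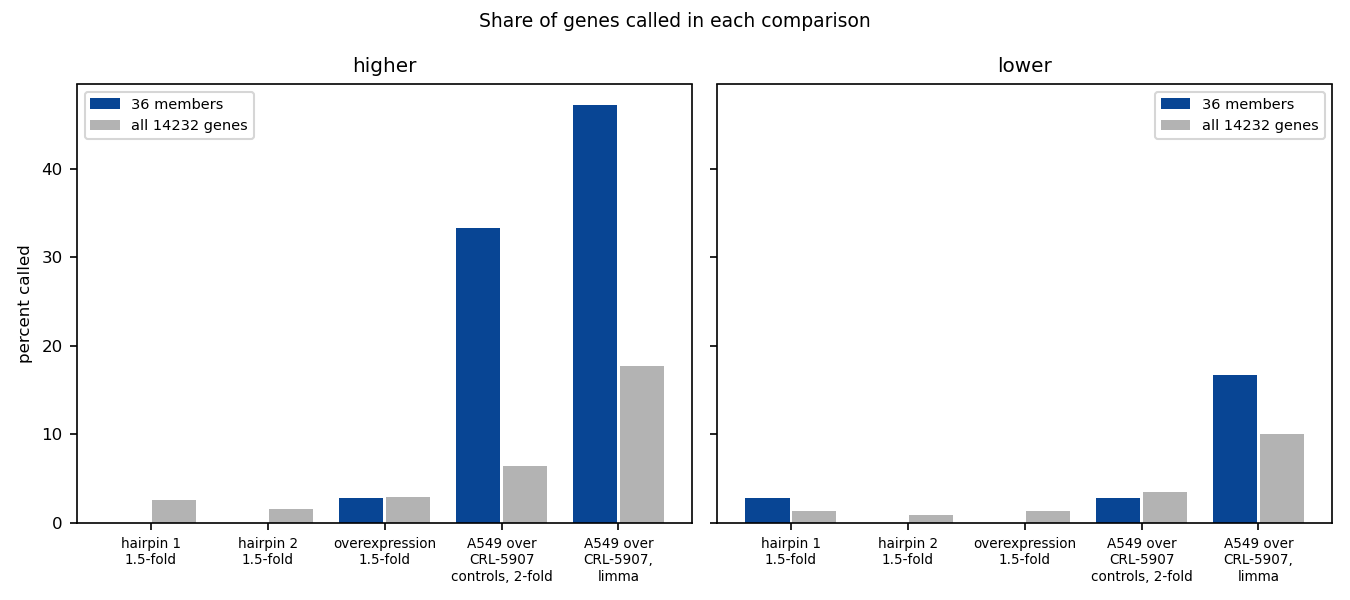
Percent of the 36 members and of all 14232 genes (bars, vertical axis) called higher (left) and lower (right) in each comparison, at 1.5-fold for single hairpins and overexpression, at 2-fold for the controls of the lines, and by limma for all arrays of the lines. The widest gap between the bars at 2-fold is on the higher side between the controls of the lines (33.3% of members against 6.44% of all genes). The bars of all genes are not matched to the members for level.

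Other genes of the pathway, in 4 lists that hold no member, were followed by the same counts, beside the 17.7% higher and 10% lower of all genes that limma called between the lines. Those shares of all genes were not matched to the lists for level. Of 15 measured further integrins, activators and adaptors, limma called 2 higher (13.3%) and 3 lower (20%) in A549 than in CRL-5907. Of 20 measured adhesion kinases, phosphatases and GTPase regulators it called 6 higher (30%) and 3 lower (15%). Of 23 measured plaque LIM proteins, actin linkers and caveola genes it called 10 higher (43.5%) and 3 lower (13%), and of 13 membrane partners of integrins 6 higher (46.2%) and 1 lower (7.69%). Among those past 2-fold between the controls were PDLIM1, a LIM protein that binds alpha-actinin (2.33), SDC1, a syndecan (1.81), CD81, a tetraspanin (1.35), CSRP1 (1.14) and LASP1 (1.06) on the higher side. SDC4, the syndecan of focal adhesions (-1.05), and APBB1IP, the adaptor that brings talin to RAP1 (-1.59), were on the lower side in A549. APBB1IP had the identical value of 4.65 on all 3 A549 arrays, below their medians, so that the size of its difference is uncertain.

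With overexpression APBB1IP (0.87), RAP1B (0.71) and PLAUR, the urokinase receptor (0.63), were among those at least 1.5-fold above the control, and no gene of the 4 lists was 1.5-fold below it. No gene of these lists passed 1.5-fold with both hairpins, and limma called none of them. Past 1.5-fold on the lower side with hairpin 1 were FYN, a SRC-family kinase (-0.65), RAP1B (-0.64) and NEXN (-0.63). With hairpin 2 the same genes were below the control by less than 1.5-fold, at -0.16 for FYN, -0.31 for RAP1B and -0.54 for NEXN. All 3 lay below the array medians throughout.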

How the data were processed

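The authors deposited log2 expression values for 22011 features (transcript clusters of an exon array) on 5 arrays. The submitters' processing notes name RMA and Affymetrix Power Tools and no version, and the log base was read off the range of the values. Total RNA was depleted of ribosomal RNA and labelled as sense-strand cDNA, per the labels' protocols. RMA corrects background, quantile-normalizes and summarises probes, and it can give several arrays exactly equal values (6.25% to 8.97% of features in any pair). Scanner files were not used here, so background detection is unknown, and the genome build is not given in the sources used here.

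Samples were grouped by title. One field of the hairpin 2 array says NEDD10 while its title says NEDD9, and the title was followed. By the platform annotation 14432 features had 1 symbol, 2408 several and 5171 none listed, which gave 14232 genes. All 36 measured members matched RefSeq by Entrez number. No filter on level was applied, since a filter on the brightest array would keep members through the line where they are high. Differences were subtracted on the log2 scale. limma 3.58.1 in R 4.3.3 (lmFit, eBayes with trend) was fitted over all genes for knockdown (3 arrays, 1 residual degree of freedom) and for the lines (5 arrays, 3 residual degrees of freedom), with Benjamini-Hochberg adjustment. Both fits were run on simulated data with known differences and the same spread for all genes. That checks the code and not the error rates on these arrays. Sequences came from RefSeq (GRCh38.p14).

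Every member was described; values on each array were given for members past the fold of a comparison, for those furthest from the control in each direction, and for others needed to describe a role. The rule named genes of the pathway lists where they passed the same folds, except for a gene that is not reported here. The members and lists were chosen with earlier results of these data known, and so were the tests. The alternatives were centring, a further quantile normalization, removal of the trend with level, the mean of a gene's features, level filters, other folds, other limma settings and omission of each array.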

Additional observations from a re-analysis of the deposited data

How the results depend on the processing

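No single difference past a fold (15 values) changed sign under the other scalings. These values were picked for their size, so that this outcome says nothing about smaller differences. The mean of a gene's features left all 15 as they were. Centring removes an offset of 0.11 between the medians of the control arrays, which lowered the members' median line difference to 0.29. At 3-fold, 4 members and 394 genes were higher in A549, and 0 members and 214 genes lower. At 1.5-fold 2 members and 1149 genes were lower. After centring or quantile normalization 2 members were lower at 2-fold, beside 617 and 621 genes. Hairpin 1 alone put 2 members 1.5-fold lower after centring and 3 after quantile normalization, beside 248 and 200 of 14232 genes. As deposited it put 3 members lower and 1 higher at 1.3-fold, beside 601 and 1267 genes. At 2-fold it put 0 members and 23 genes lower. Overexpression put 4 members and 1095 genes higher at 1.3-fold, and 0 members and 74 genes at 2-fold. Among genes whose mean lay above the median it put 0 members and 235 genes 1.5-fold higher, since ITGB8 is below that median. Against the hairpin spread, measured anew under each scaling, 0 members were higher with both hairpins after centring, quantile normalization or removing the trend (1 as deposited). In that order 1, 3 and 2 were lower (0 as deposited). Over all genes 2.7%, 2.52% and 2.61% were higher and 1.7%, 2.04% and 1.82% lower, in the same order. By sign, 13 members lay below the control with overexpression after centring, 14 after quantile normalization and 8 as deposited. Over all genes the shares below were 54.9%, 52% and 42.3%, in that order. With a filter on the brightest array 5 members and 2751 genes lay below. When each array was left out, limma called 9 to 15 members higher and 1 to 6 lower in A549: 11 higher without hairpin 2, 9 without overexpression, 10 without the CRL-5907 control, 1 lower without either hairpin array and 2 lower without the A549 control; with 4 arrays fewer residual degrees of freedom are left. Omitting a hairpin gave 0 members higher and 0 to 1 lower at 1.5-fold (TNS4). limma called no member for knockdown without a trend, with a robust prior or on all 5 arrays. Over all genes, centring moved the share higher among those called to 60.9% for both hairpins (72.4% as deposited), to 51.7% for hairpin 1 (67.1%) and to 47.9% for limma between lines (63.8%). Among the members past 2-fold between the controls, the share higher in A549 was 81.8% after quantile normalization and 92.3% as deposited. No paired analysis was possible because the control groups hold 1 array each and share no replicate pairs with the knockdown arrays. Depth does not apply to arrays, and signal over background is unknown for the 9 members below every array median.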
